A study of Mus musculus with 4 samples.

Results

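Chemokines are small secreted proteins that guide migrating cells. They are read by receptors that span the membrane and signal through inhibitory G proteins, while atypical receptors bind chemokines without that signal and take them out of the surroundings. In lymphocytes the receptors steer homing to lymph nodes, skin and inflamed tissue, and several of the ligands are induced by inflammatory signals, among them NF-κB and interferons. The genes described here are 10 of that family. They comprise the ligands Ccl2, Ccl5, Xcl1, Cxcl10 and Cxcl16, the signalling receptors Ccr4, Ccr7, Ccr10 and Cxcr4, and the atypical receptor Ackr4. Every probe that the deposited table assigns to one of these symbols was taken, which gave 12 probes of 33822 with a symbol, and 10 genes of 24561. The genes had been picked with earlier results of the same arrays in view, so their ratios to L1210-control and their counts are a description of these arrays and not independent evidence.

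L1210 cells are mouse lymphocytic leukemia cells, kept here as DBA subline 212. All 4 lines were infected with virus, sorted as GFP-positive stable cells and hybridised on 1 Agilent 1-colour array each. L1210-control carried the control transfection. L1210-Fbxw11a carried the full-length transcript of Fbxw11, an F-box protein that chooses substrates for a ubiquitin ligase. L1210-Fbxw11c carried the variant without exon 2 and L1210-Fbxw11d the variant without exons 2 and 3. The labels name no clone and no second culture of any line. With 1 array a line no difference has a replicate check, and no test across lines was possible. The cells of a line are measured in bulk, so fewer expressing cells and less RNA per cell cannot be told apart. Slide 1 held the control, Fbxw11a and Fbxw11c arrays and slide 2 the array of L1210-Fbxw11d, whose slide and variant cannot be told apart.

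Probes well above background made up 62.5% to 68.7% of each array, and no gene spot was saturated. Both Fbxw11 probes lie at the far end of the transcript (from bases 3692 and 3803), and they read 1.02- to 1.24-fold over control in the variant lines. Whether the introduced copies hold that stretch is not given in the sources used here, so these probes do not check the labels. The study checked the lines by real-time RT-PCR and western blotting, which were not analysed here. Of 12 B lineage markers 7 were well above background on all 4 arrays (Cd79a and Blnk among them), while Cd79b, Igll1, Ebf1 and Rag1 were above it on none. The T and NK cell list had 9 of 12, with Cd4 and Cd3e but without Cd3d, Cd3g or Ncr1, and the macrophage and monocyte list also had 9, with Itgam and Cd68 but without Lyz2 or Fcgr1. Summed signals over each list ran from 19020 to 23850 for B lineage markers, from 4693 to 5071 for T and NK markers and from 11420 (the Fbxw11c line) to 14970 (L1210-control) for macrophage markers. Fibroblast and stromal markers, 7 of 12 of which were above background on all arrays and Pdgfrb, Thy1 and Postn on none, summed to 2277 in L1210-control and 6287 in the Fbxw11d line. Most of that difference lay in Col1a2 (888.3 in control and 3688 in the Fbxw11d line, 2-fold or more higher in all 3 variant lines) and Tagln (825.2 and 2086), while Pdgfra stood at -0.70 and Acta2 at -0.39 on the log2 scale in the Fbxw11d line. The median log2 ratios of the list were 0.001, -0.09 and 0.33 in the Fbxw11a, Fbxw11c and Fbxw11d lines. The part of these markers in the chemokine values was not tested.

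Printed here are 3 sequences, 1 probe and 2 promoters. The Xcl1 probe is 60 bases long, lies on chromosome 1 at chr1:166862020-166862079 (mm9) from base 201 of the transcript, and keeps 1 open reading frame. It is shown because the whole Xcl1 result rests on this 1 probe.
Xcl1 probe: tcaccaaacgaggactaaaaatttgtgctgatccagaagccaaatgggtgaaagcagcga
RefSeq promoters, the 250 bases before the start in GRCm38.p6, were found for 5 members, Cxcr4, Xcl1, Cxcl10, Ackr4 and Ccr4, all on the minus strand. The others are Ccl2, Ccl5, Cxcl16, Ccr7 and Ccr10. Capitals mark matches to a kappaB-like motif (GGG, any 3 bases, TTCC) and an interferon-response-like motif (GAAA, any 2 bases, GAAA), searched on both strands together with TATAAA. Cxcl10 is shown because it held the first and the second of these, and Xcl1 because it held none of the 3.
Cxcl10 promoter, chr5:92348890-92349139: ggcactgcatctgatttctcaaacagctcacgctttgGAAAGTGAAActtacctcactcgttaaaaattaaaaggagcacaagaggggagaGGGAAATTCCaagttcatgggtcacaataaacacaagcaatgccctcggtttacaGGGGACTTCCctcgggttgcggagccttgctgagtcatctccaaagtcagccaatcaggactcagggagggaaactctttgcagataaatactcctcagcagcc
Xcl1 promoter, chr1:164935523-164935772: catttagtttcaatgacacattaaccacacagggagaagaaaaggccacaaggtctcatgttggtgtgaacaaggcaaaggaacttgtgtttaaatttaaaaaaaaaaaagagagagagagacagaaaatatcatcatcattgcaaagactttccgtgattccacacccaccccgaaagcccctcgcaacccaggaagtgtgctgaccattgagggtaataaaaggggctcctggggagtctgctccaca
In Cxcl10 the kappaB-like matches lay 159 and 104 bases before the start and the interferon-response-like match 213 bases before it. Of all 32851 mouse promoters in the table, 4.65% held the kappaB-like letters, 2.98% the interferon-response-like letters and 12.4% TATAAA. Cxcr4 and Ackr4 held TATAAA, at 30 and 185 bases before the start, and Cxcr4 also held its reverse at an overlapping place. Ccr4 held none of the 3 motifs. A match is only a run of letters, and no binding was measured here.

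The signals of the 12 probes were brought to the scale of the control array after each array was divided by its own 75th percentile. Levels are compared within a probe and never between probes. The error printed with a signal is that of the scanner software for the spot, and the spread printed with a log2 ratio is the SD that spots of like brightness would give between arrays. Neither covers culture, sorting or RNA extraction.

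**Figure D1:**
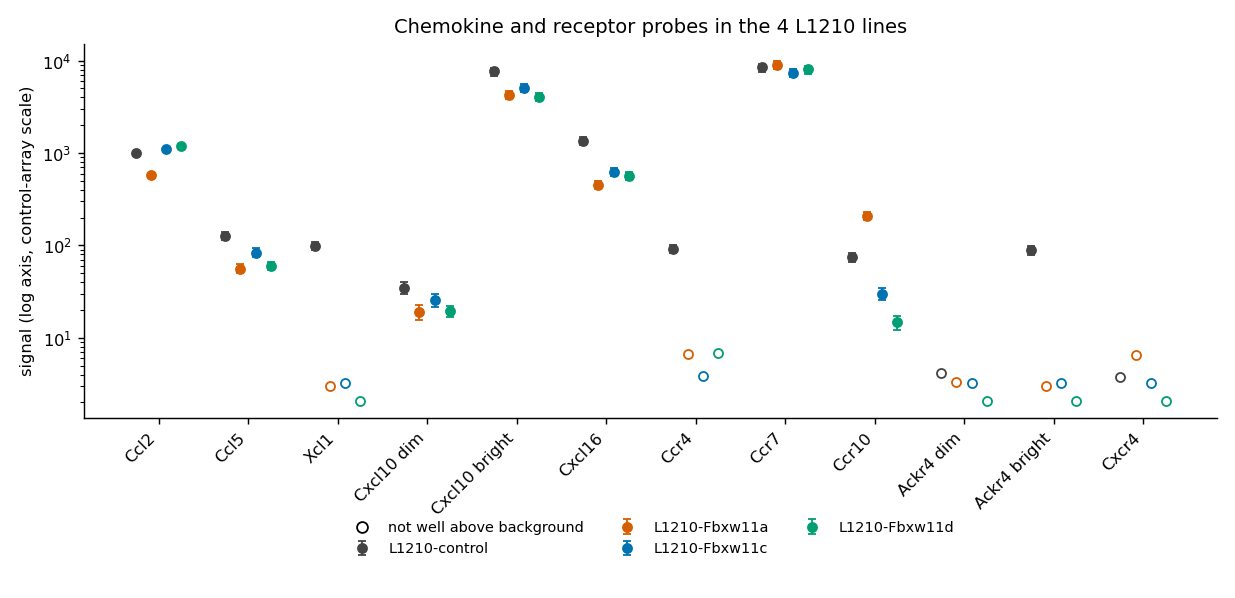
Signal of each of the 12 probes (log axis, control-array scale) in the 4 lines, with the scanner error as bars and open circles where the probe was not well above background. Xcl1, Ccr4 and the bright Ackr4 probe are filled in L1210-control alone, and Cxcr4 and the dim Ackr4 probe are open in every line.

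Cxcl16 was the member ligand with the plainest fall. It encodes a chemokine that is made as a membrane-bound protein and shed, and its receptor is Cxcr6. Its probe (chr11:70267780-70267839, mm9) read 1357 ± 136 in the control line, 449.6 ± 45.1 in the Fbxw11a line, 624.5 ± 62.6 in the Fbxw11c line and 570.4 ± 57.1 in the Fbxw11d line (scanner error, 1 spot each). All 3 variant lines lay below control. The log2 ratios were -1.59, -1.12 and -1.25, or 3.02-, 2.17- and 2.38-fold lower, against a spot spread of 0.082 to 0.12. Among the variant lines the Fbxw11a line was the lowest, by 0.34 on the log2 scale below the Fbxw11d line (spread 0.13), while the Fbxw11c line and the Fbxw11d line were 0.13 apart with a spread of 0.12. The spot was even on all 4 arrays, and the ratios stayed between -1.62 and -1.03 over the alternative settings.

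Cxcl10, an interferon-induced ligand of Cxcr3 that draws activated T cells, was also lower in all 3 variant lines, by less than 2-fold. Its bright probe (chr5:92775781-92775840) read 7652 ± 765 in the control line, 4287 ± 429 in the Fbxw11a line, 5032 ± 503 in the Fbxw11c line and 4076 ± 408 in the Fbxw11d line. The log2 ratios were -0.84, -0.61 and -0.91, with spot spreads of 0.081 to 0.11. The Fbxw11d line stood at -0.07 relative to the Fbxw11a line, within the spread of 0.12. Quantile normalization brought the Fbxw11d line to 2-fold (-1.002). A dim second probe (chr5:92776616-92776675) read 34.72, 19.21, 25.55 and 19.45 in the order control, Fbxw11a, Fbxw11c and Fbxw11d. Its log2 ratios of -0.85, -0.44 and -0.84 have the same signs as those of the bright probe, but 1 of them is smaller than its spread of 0.54 to 0.76. The 9 of 12 interferon response genes above background on all arrays had medians of -0.05, 0.20 and 0.02 on the log2 ratio scale. Of them 1 was 2-fold or more higher in the Fbxw11a line and 1 lower in the Fbxw11d line.

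Ccl5, which draws T cells and monocytes and binds Ccr1 and Ccr3 among others, was lower in every variant line at a dimmer signal. It read 126.9 ± 13.2 in the control line, 55.96 ± 6.28 in the Fbxw11a line, 83.68 ± 8.92 in the Fbxw11c line and 60.25 ± 6.37 in the Fbxw11d line. These are log2 ratios of -1.18, -0.60 and -1.07 with spreads of 0.28 to 0.37, or 2.27-, 1.52- and 2.11-fold lower. The Fbxw11a line and the Fbxw11d line were 0.11 apart with a spread of 0.37, so their order is not settled. The Ccl5 spot lies in row 18 of 384, but it was even on all 4 arrays, with a pixel CV of 19.8% in L1210-control where the 95th percentile of like spots was 29.1%. The ratio of the Fbxw11d line was short of 2-fold under normexp background correction, quantile normalization, median centring and the deposited normalized values (-0.95 to -0.86), and over the settings the ratio of the Fbxw11a line ran from -1.22 to -0.71.

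Ccl2, the monocyte attractant read by Ccr2, is the best measured member because its probe (chr11:81850650-81850709) is printed on 10 spots. The lowest, median and highest spot were 944.6, 983.6 and 1074 in L1210-control (10 spots) and 544.6, 575 and 621.4 in the Fbxw11a line (10 spots). They were 1032, 1100 and 1164 in the Fbxw11c line (9 spots left after outlier flags) and 1113, 1204 and 1268 in the Fbxw11d line (8 spots). The highest spot of the Fbxw11a line lay below the lowest of every other line, whereas control and the Fbxw11c line overlapped. The log2 ratios to control were -0.78 ± 0.03, 0.15 ± 0.03 and 0.27 ± 0.03 (SE over spots, which are not replicate cultures). None reached 2-fold, and the Fbxw11d line stood 2.07-fold above the Fbxw11a line, a log2 difference of 1.05 that quantile normalization brought to 0.995, just short of 2-fold.

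**Figure D2:**
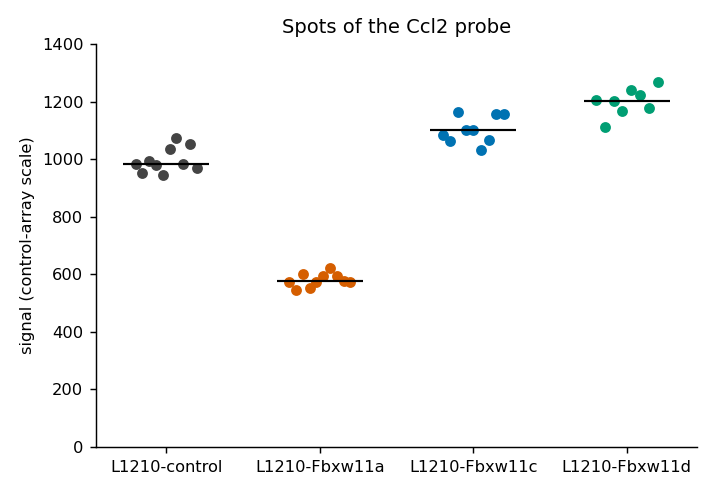
Signal of each unflagged spot of the Ccl2 probe by line (control-array scale, linear axis from 0), with the median as a line. The 10 spots of the Fbxw11a line, from 544.6 to 621.4, lie below all spots of the other lines.

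Ccl7, a second monocyte attractant whose probe lies 10.0 kb from that of Ccl2 on chromosome 11, was looked at after its values were seen. It read 59.0 in the control line, 17.4 in the Fbxw11a line, 53.7 in the Fbxw11c line and 52.2 in the Fbxw11d line, so it too was low in the Fbxw11a line alone, by -1.76 on the log2 scale (spread 0.58). The ratios of the other lines were -0.14 and -0.18. Ccl2 and Ccl5 probes are 1.49 Mb apart on the same chromosome, which holds 5 of the 10 members, and their profiles differ, since Ccl5 was low in the Fbxw11d line and Ccl2 was not.

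Xcl1, a ligand that T and NK cells release for dendritic cells carrying Xcr1, was measured in a single line. It read 98.99 ± 10.6 in L1210-control and was not well above background in the Fbxw11a line, the Fbxw11c line or the Fbxw11d line, where the spots read 3.005, 3.245 and 2.073. Against the detection limits of 14.4, 14.9 and 10.4 on the same scale, this is at least 6.89-, 6.66- and 9.52-fold lower. The L1210-control spot behind these bounds was uneven, as given below. With normexp background correction the log2 ratios were smaller, at -1.23, -1.27 and -1.78. Since Xcl1 passed the filter on dim probes only through L1210-control, it had to differ.

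Among the receptors, Ccr7, which guides lymphocytes into lymph nodes along Ccl19 and Ccl21, was bright and nearly level. It read 8438 ± 844 in the control line, 9011 ± 901 in the Fbxw11a line, 7427 ± 743 in the Fbxw11c line and 8042 ± 804 in the Fbxw11d line. The log2 ratios were 0.10, -0.18 and -0.07 with spreads of 0.083 to 0.12. Control did not differ from the Fbxw11d line beyond the spread, nor the Fbxw11d line from the Fbxw11c line (0.12 with a spread of 0.12). Centred on the median in place of the 75th percentile, the Fbxw11d line turned to 0.15.

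Ccr10, a receptor of skin- and mucosa-homing lymphocytes that reads Ccl27 and Ccl28, had the widest span among members measured in all 4 lines. It read 74.06 ± 8.32 in the control line, 209 ± 21.1 in the Fbxw11a line, 30.06 ± 4.43 in the Fbxw11c line and 14.74 ± 2.55 in the Fbxw11d line. The Fbxw11a line was thus above control (log2 1.496, spread 0.23) and the other variant lines below it (-1.30 with a spread of 0.55, and -2.33 with a spread of 0.74). The Fbxw11c line and the Fbxw11d line were 1.03 apart with a spread of 0.88. With normexp background correction the Fbxw11a and Fbxw11c lines were short of 2-fold (0.93 and -0.65). The difference between lines could not be tested. The spot of the Fbxw11a line was uneven, as given below, and those of the other lines were not.

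Ccr4, which reads Ccl17 and Ccl22 on skin-homing and type 2 helper T cells, resembled Xcl1. It read 92.35 ± 9.94 in L1210-control and, not well above background, 6.76 in the Fbxw11a line, 3.85 in the Fbxw11c line and 6.83 in the Fbxw11d line. These are at least 6.43-, 6.21- and 8.88-fold lower, and with normexp background correction the log2 ratios were -1.17, -1.21 and -1.67. The L1210-control spot of Ccr4 was uneven, as given below, and so was that of the bright Ackr4 probe. Ackr4, the atypical receptor that takes up Ccl19, Ccl21 and Ccl25, gave split answers from its pair of probes. That at chr9:104000628-104000688 read 88.43 ± 9.62 in L1210-control and 2.99, 3.25 and 2.07 elsewhere, not well above background, or at least 6.16-, 5.95- and 8.5-fold lower, with normexp ratios of -1.17, -1.21 and -1.72 on the log2 scale. The other Ackr4 probe, which starts at base 1653 of the transcript and not at 2181, was not well above background in any line, control included, at 4.13, 3.28, 3.28 and 2.07. Cxcr4, the receptor of Cxcl12 that holds precursor cells in the marrow, was likewise not well above background in any line (3.79, 6.47, 3.24 and 2.07), and it is not compared.

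**Figure D3:**
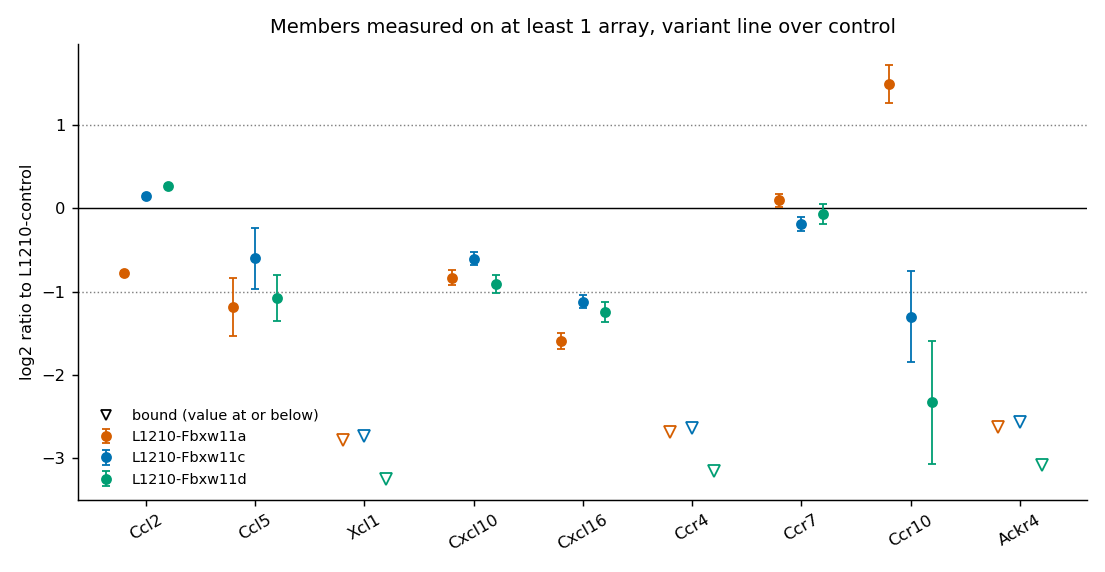
Log2 ratio of each variant line to L1210-control for the 9 members measured on at least 1 array, with the spot spread as bars (for Ccl2, the error over its spots), bounds as open triangles and dotted lines at 2-fold. Cxcl16 lies below -1 in all 3 lines, Ccr7 stays near 0 and Ccr10 runs in both directions.

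Of the 9 members compared, 6 were 2-fold or more away from control in the Fbxw11a line, 5 lower and Ccr10 higher. In the Fbxw11c line 5 were lower, and in the Fbxw11d line 6 were lower. Over all genes compared the same thresholds were passed by 4.52% in the Fbxw11a line (2.47% higher, 2.06% lower), by 3.93% in the Fbxw11c line (1.63% higher, 2.3% lower) and by 6.08% in the Fbxw11d line (1.11% higher, 4.96% lower). Xcl1, Cxcl16, Ccr4 and Ackr4 were 2-fold or more lower in all 3 lines, which 1.36% of 17044 genes were, and 0 members were higher in all 3 (0.217% of genes). With Ccl5 and Cxcl10, 6 members lay below control in all 3 lines by any amount, as 22.4% of genes did. Xcl1, Ccr4 and Ackr4 passed the filter on dim probes through L1210-control alone, which was the case for 1.1% of the 16868 genes above background there, and for 0.373% with at least 4-fold over every bound. The members were chosen on these contrasts, so nothing is read from the counts. Between variant lines 6 members could be compared. Ccr10 differed by 2-fold or more between the Fbxw11c line and the Fbxw11a line (4.23% of all genes did) and between the Fbxw11d line and the Fbxw11c line (4.37%), and Ccr10 and Ccl2 differed between the Fbxw11d line and the Fbxw11a line (6.18%). With quantile normalization, the one alternative run for these differences, Ccl2 between the Fbxw11d line and the Fbxw11a line (0.995) and Ccr10 between the Fbxw11d line and the Fbxw11c line (-0.89) fell short of 2-fold.

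The evenness of the spots bears on 4 of these genes. It was taken as the CV of the pixels within a spot, set against the 95th percentile of the 1000 spots nearest in brightness on the array, a measure added after the values were seen. In L1210-control the Xcl1 spot had a pixel CV of 49.7% (95th percentile 32.4%), the Ccr4 spot 37.7% (33.6%) and the bright Ackr4 spot 39.9% (33.9%). In the Fbxw11a line the Ccr10 spot had 41.2% (23.7%). These 4 were the spots that gave each gene its highest value. The spots of Cxcl16, Cxcl10 and Ccl5 were within the percentile on every array, those of Ccr7 passed it narrowly in the Fbxw11a line (20.7% against 20.6%) and the Fbxw11c line (22.6% against 21.2%), and of the 10 Ccl2 spots 1 passed it in L1210-control and 2 in the Fbxw11d line.

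**Figure D4:**
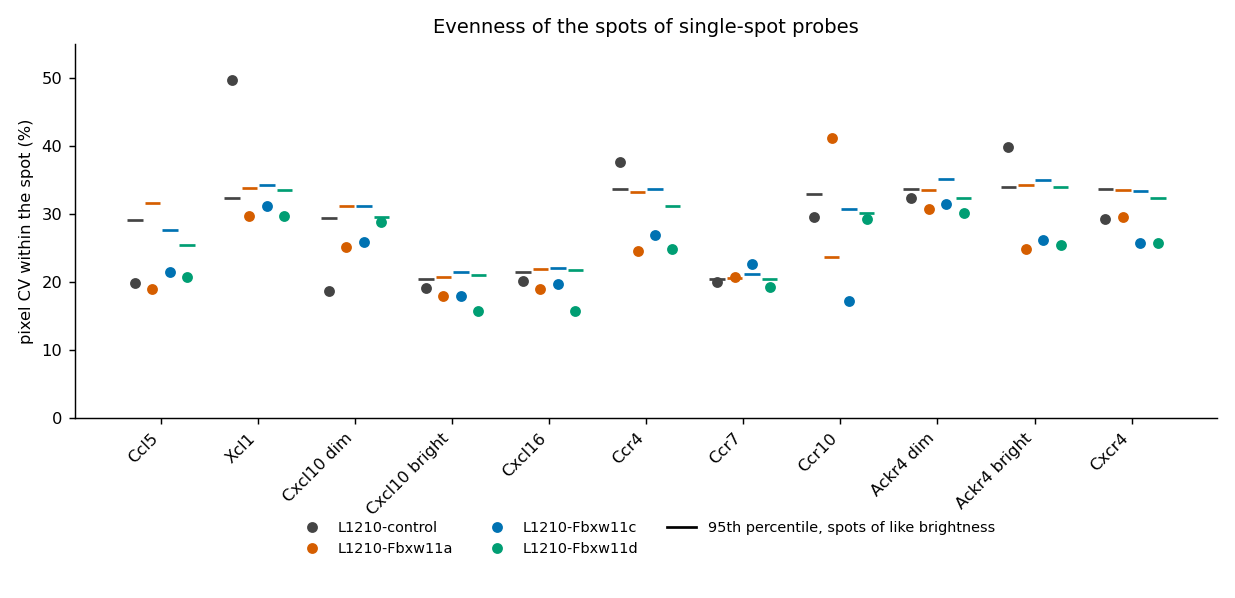
Pixel CV within the spot (points) for the 11 single-spot probes in the 4 lines, beside the 95th percentile of spots of like brightness on the same array (short lines). Xcl1, Ccr4 and the bright Ackr4 probe stand above their line in L1210-control, and Ccr10 in the Fbxw11a line.

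The clearly uneven spots also share a place, unlike that of Ccr7 in row 165. They lie in rows 17 (Xcl1), 75 (Ccr4), 10 (Ackr4) and 5 (Ccr10), all within rows 1 to 96 of the 384 rows. On the L1210-control array 168 probes of all kinds were well above background there alone and at least 4-fold over every other array. Of these, 144 (85.7%) lay in rows 1 to 96, which hold 25.0% of gene spots, and 145 (86.3%) were uneven, with a median pixel CV of 43.2% against 19.5% for spots of like brightness. The Fbxw11a line had 139 such probes with 126 in those rows, the Fbxw11c line 56 with 48, and the Fbxw11d line, on the other slide, 9 with 1. Of the spots dark in all 3 variant lines, 8.86% were lit in L1210-control in rows 1 to 96 and 1.19% in the other rows. Within 5 rows and columns of the Xcl1 spot the share was 25.0% (8 of 32), around Ccr10 11.8%, around the bright Ackr4 probe 7.14% and around Ccr4 6.98%, both of the latter below the share of rows 1 to 96. The share around Ccr10 also counts spots lit in L1210-control, whereas its own uneven spot was on the array of the Fbxw11a line. Around the other member spots it was 19.5% (8 of 41) for the dim Cxcl10 probe, 14.8% for Cxcr4, 12.5% for Ccl5, 7.32% for Cxcl16 and 0% for the bright Cxcl10 probe, Ccr7 and the dim Ackr4 probe.

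**Figure D5:**
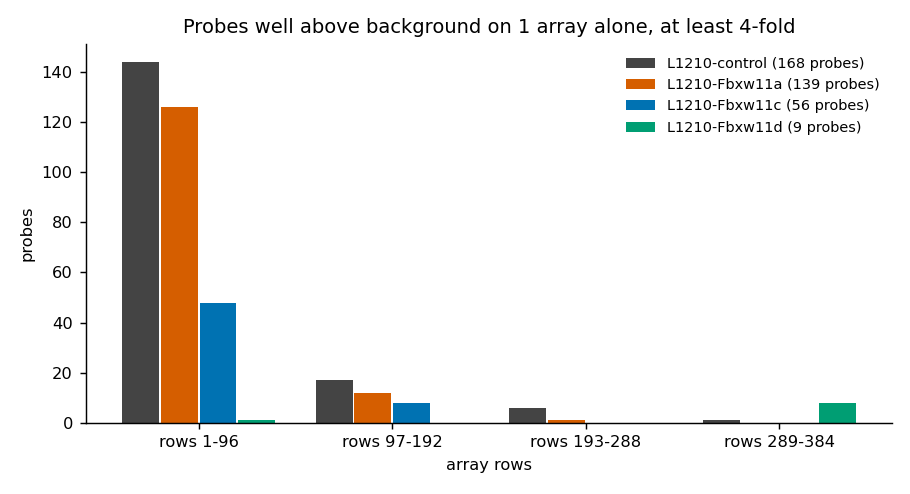
Number of probes well above background on 1 array alone and at least 4-fold over each other array, by block of array rows and by line. Rows 1 to 96 hold 144 of 168 in L1210-control, 126 of 139 in the Fbxw11a line and 48 of 56 in the Fbxw11c line, but 1 of 9 in the Fbxw11d line.

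With uneven spots left out, the members 2-fold or more away from control were Ccl5 and Cxcl16 in the Fbxw11a line, Cxcl16 and Ccr10 in the Fbxw11c line, and Ccl5, Cxcl16 and Ccr10 in the Fbxw11d line. With rows 1 to 96 left out, Cxcl16 alone was left in each line, since the only probe of Ccl5 and that of Ccr10 lie there too. Under both, Cxcl16 was the 1 member lower in all 3 lines, but few members could still be compared. Without uneven spots only Ccl2, Ccl5, Cxcl10 and Cxcl16 had ratios in all 3 lines. Without rows 1 to 96 only Cxcl10, Cxcl16 and Ccr7 had ratios. The part of uneven spots in the values of Xcl1, Ccr4, Ackr4 and Ccr10 was not tested.

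The partner genes show which ligand and receptor pairs had signal on both sides. Ccr2, Ccr1, Xcr1, Ccl22 and Ccl28 were not well above background on any array. Cxcr3, the receptor of Cxcl10, read 144.1, 170.5, 96.90 and 83.95 in the order control, Fbxw11a, Fbxw11c and Fbxw11d, with log2 ratios of 0.24, -0.57 and -0.78 (spreads of 0.19 to 0.33) and a spot that passed the evenness percentile narrowly in the Fbxw11d line (25.3% against 25.1%). Cxcr6, the receptor of Cxcl16, was dim, at 39.66, 34.84, 41.87 and 27.54, with ratios inside a spread of 0.43 to 0.71. A second Cxcr6 probe was not well above background in control (19.77) and read 38.56 in the Fbxw11a line, at least 0.96 higher on the log2 scale (spread 0.55), so the probes differ in sign there. Ccl17, a ligand of Ccr4, read 43.51, 21.48, 19.49 and 29.73 from even spots. Ccl27a, a ligand of Ccr10, read 1302, 1031, 1004 and 884.3, with log2 ratios from -0.34 to -0.56, though its spot was uneven on 3 arrays. Another bright Ccl27a probe gave -0.40, -0.50 and -0.45, but a dimmer one gave -0.17, -0.10 and -0.09. The size of the fall thus differs by probe. Ccl19, which Ccr7 and Ackr4 bind, read 160.8, 237.6, 177.8 and 177 on its brightest probe. A second bright probe gave a log2 ratio of -0.25 in the Fbxw11a line against 0.56 on the first, so the direction for Ccl19 is not settled. Ccl25 read 1211, 1279, 1202 and 1197, but another of its probes gave log2 ratios of -1.67, -1.89 and -2.44. A further measured Ccl25 probe gave -0.04, -0.11 and 0.03, near those of the brightest. Cxcl12 was above background in the Fbxw11a line alone, at 16.69, which gave no fold over the limit of control, and Ccr3 read from 33.15 to 45.59.

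The chemokine lists hold the members and the rest of the family. Of 20 CC ligands on the array, 11, 11 and 12 were compared in the Fbxw11a line, the Fbxw11c line and the Fbxw11d line, of which 3, 1 and 1 were 2-fold or more lower and 0 higher, with median log2 ratios of -0.34, 0.02 and 0.01. Of 17 CXC, C and CX3C ligands, 9, 9 and 10 were compared and 6 were lower in each line, with medians of -2.79, -1.98 and -1.57. The first of these medians is the bound of Xcl1 itself, and without Xcl1 5 were lower in each line, with medians of -2.45, -1.55 and -1.25. Without any member 4 of 6, 6 and 7 were lower. Besides Cxcl16 and Xcl1 the lower genes were Cxcl1, Cxcl2, Cxcl3 and Cxcl5, the neutrophil attractants of chromosome 5, with log2 ratios from -1.90 to -4.22. Their spots lie outside rows 1 to 96, and those of Cxcl3 and Cxcl5 passed the evenness percentile narrowly in control. The medians over all genes compared were 0.01, 0.02 and 0.04.

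The receptors did not share a direction. Of 18 receptors 12, 11 and 11 were compared, with 1 higher in each line, 1, 2 and 2 lower, and medians of 0.17, -0.18 and -0.07. Ccr6, which reads Ccl20 on B cells and helper T cells, was the higher one in the Fbxw11c line and the Fbxw11d line. It read 36.42, 48.47, 84.96 and 107.8 from even spots, with log2 ratios of 0.41, 1.22 and 1.57. All 5 atypical receptors were compared, with medians of -0.03, 0.10 and 0.14. Besides Ackr4, Ackr2 was lower (-1.31, spread 0.90) and Ackr1 higher (1.25, spread 0.39) in the Fbxw11d line alone. Of 33 genes of receptor signalling (G protein subunits, kinases, arrestins, Rac pathway members and the sheddases Adam10 and Adam17, which release Cxcl16), 25 were compared, with medians of -0.04, -0.03 and 0.00. Gng2, a G protein gamma subunit, was the 1 that passed 2-fold, lower by -1.31 in the Fbxw11a line. Leaving out the 10 members, 4 of the 27 family genes compared in all lines were lower in all 3, the same CXC ligands, and medians were -0.02, -0.01 and -0.02.

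For members measured in all lines with a span of at least 1 on the log2 scale, the genes of most similar profile over the 4 arrays were looked for among 16248. Ccl2 was nearest to Bai1 and Gpr56 (root mean square difference 0.019 and 0.044 on the log2 scale), with even spots. Ccl5 was nearest to Cyp2t4 (0.017) and A730021G18Rik (0.044), and Cxcl16 to Ttc30b (0.086) and Mccc1os (0.092). Ccr10 had no close profile, with B230114P17Rik at 0.267 and Olfr170 at 0.385. The spots of Cyp2t4, Ttc30b and Mccc1os were uneven in L1210-control, and those of both genes nearest to Ccr10 were uneven in the Fbxw11a line, all within rows 1 to 96. With 4 points a profile is a weak likeness, and genes can come close without being related, although none came close to Ccr10.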

How the data were processed

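Cy3-labelled RNA of 4 lines was hybridised to 1 Agilent array each (mm9 annotation). The authors deposited scanner output holding background-corrected signal intensity values per spot (Feature Extraction 9.1 per the labels, 10.7.1.1 per the file headers), and a table of signals and log2 values normalized by a method not given in the sources used here. Here log2 processed signals minus each array's 75th percentile were used. Outlier-flagged spots (102 to 167 an array) were dropped, spots of a probe averaged, and probes with at least 0.5 of spots well above background called measured. Bounds used, on each array, the lowest signal of probes that were well above background on all their spots, or the dim probe's own signal where that was higher. A gene took its brightest probe. The threshold was 2-fold. The number of arrays, at 1 a line, limits precision, as does signal near background. Spot spreads came from the 20 probes nearest in brightness among those printed on 10 spots.

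The members and all lists were chosen with earlier results of these data known. Named genes were the members, their partners, family genes lower in all 3 lines and the 2 nearest profiles. Ccl7, Ccr6, Ackr1, Ackr2 and Gng2 were named after their values were seen. Calling was also run on simulated data, whose outcome is not given here, so no support for the calls is taken from it. R 4.3.3, limma 3.58.1 (normexp, offset 50), Python 3.11.15, numpy 2.4.6 and pandas 2.3.3 were used.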

Additional observations from a re-analysis of the deposited data

Results flagged for a closer look

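For 2 members the variant lines lay on opposite sides of control, each by more than 2 times its error (the spot spread for Ccr10, the SE over spots for Ccl2), and the difference was not tested. Ccl2 was lower in L1210-Fbxw11a (-0.78 on the log2 scale) and higher in L1210-Fbxw11c and L1210-Fbxw11d, which stood 0.93 and 1.05 above L1210-Fbxw11a. The single Ccl2 spots of L1210-Fbxw11c, at 0.15 over control with a spot SD of 0.062 on each array, overlapped those of control. Ccr10 was higher in L1210-Fbxw11a (1.496) and lower in the other lines, which differed from L1210-Fbxw11a by -2.80 and -3.83. The Ccr10 spot of L1210-Fbxw11a was uneven and the 10 Ccl2 spots of that array were even.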

How the results depend on the processing

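Of 249 values of members under alternative settings, 209 moved by less than the spot spread, 40 by more and 0 changed sign past 2-fold. Several settings, such as keeping flagged spots or dropping the filter on dim probes, leave most measured ratios as they were. Part of the 209 was therefore fixed in advance. A member that a filter removed gave no value and is not among the 249. The 1 change of sign was Ccr7 in the Fbxw11d line under median centring (0.15). No paired analysis was possible because each line has 1 array, and for the same reason no replicate could be left out. Arrays, at 1 a line, and signal near background limit what can be seen.

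Genes 2-fold or more away numbered 798 in the Fbxw11a line, 688 in the Fbxw11c line and 1060 in the Fbxw11d line, and 232 were lower in all 3 lines. These became 245, 210, 457 and 94 with normexp, 2004, 1837, 2829 and 425 without a filter on dim probes, 1930, 1750, 2707 and 415 at 1.5-fold, and 356, 299, 376 and 147 at 3-fold. Requiring both arrays above background gave 444, 361, 723 and 76. Of the alternatives chosen after seeing the data, leaving out uneven spots gave 439, 366, 767 and 62. Leaving out rows 1 to 96 gave 317, 288, 551 and 62. The number of genes compared under each setting is not given, so these counts are not shares.

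Members away from control numbered 6, 5 and 6, with 4 lower in all 3 lines. They became 3, 2 and 3 with 1 when both arrays had to be above background, 2, 2 and 3 with 1 without uneven spots, and 1, 1 and 1 with 1 without rows 1 to 96. At 3-fold the Fbxw11c line had 3. Family genes lower in all 3 lines, 8 at first, became 5, 3 and 5 under those filters.

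With normexp the median of CXC, C and CX3C ligands became -1.50, -1.27 and -1.74, that of CC ligands -0.24 and that of receptors -0.35 in the Fbxw11d line. Median centring raised the median of all genes in that line from 0.04 to 0.26. It moved CC ligands to 0.23, CXC, C and CX3C ligands to -1.36, receptors to 0.11, atypical receptors to 0.36 and signalling genes to 0.21. For signalling genes the main median behind these settings was -0.002, where the list above had 0.004, so their gene sets differ slightly. Under median centring the member ratios of the Fbxw11d line rose by like amounts. Ccl2 went from 0.268 to 0.485, Xcl1 from -3.251 to -3.033 and Ccr7 from -0.069 to 0.148. Such a rise is 1 shift in the scale of the array, not a set of separate changes. The cause of the other moves was not tested, beyond the fewer spots or genes that the stricter filters leave.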
